A study of Mus musculus with 20 samples.

Results

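The transforming growth factor beta (TGF-beta) pathway, with its bone morphogenetic protein (BMP) and Nodal branches, was followed through mouse embryonic development. A list of 49 of its genes was drawn up by name, and a gene was measured here by every array probe set annotated with its symbol alone. Of the 49 genes, 46 had such a probe set, 94 probe sets in all, out of 18194 genes on the array. Bmp3, Gdf6 and Mstn had none, and 1 further probe set that carries the symbols of both Orc4 and Acvr2a was left out. Of the 46 measured genes, 45 passed a filter on low signal and were tested. Gdf3, a Nodal-related ligand, did not pass, since it was above the median signal of the array on 0 of the 20 arrays.

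The samples were whole embryos of wild-type C57BL/6 mice, kept free of specific pathogens, with the amnion removed and both sexes mixed. The RNA of several embryos of 1 stage was pooled for each sample and read on 1 Affymetrix Mouse Genome 430 2.0 array, a chip of short oligonucleotide probes. There were 3 arrays for each embryonic day from E7.5 to E10.5 (E8.5 and E9.5 between them), and 2 for each of 4 later days, E12.5 and E14.5 as well as E16.5 and E18.5. No group was treated or carried an altered allele, so stages are compared with stages, and p-values measure the spread between pools of embryos. The value of a probe set is its MAS5 signal, a linear brightness. In RNA of whole embryos, fewer cells of a type and less RNA per cell cannot be told apart.

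Ligands of this family bind a complex of type I and type II receptor kinases on the cell surface. The type I receptor then phosphorylates receptor-regulated Smad proteins, which join the common Smad4 and enter the nucleus to regulate genes. Nodal, activins and the TGF-betas act through Smad2 and Smad3, and BMPs through Smad1, Smad5 and Smad9. Secreted antagonists such as Noggin trap the ligands, and Smad6 and Smad7 inhibit the receptors from within. In the mouse embryo, Nodal and BMP signals set up the body axes and the mesoderm during gastrulation, and the family is used again in heart, limb, skeleton, vessels and brain.

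Promoter windows from RefSeq, on the build GRCm38.p6, were at hand for 31 of the 49 genes. Each runs from 250 bases before a gene's start to 50 bases after it. Those of the Id genes are shown because Id4 was called in the comparisons below and its relatives were not, and that of Tgfb2 because it was the ligand with the largest rise at E10.5 against E7.5. Id1 is named only. Sequences run 5′ to 3′ on the strand of the gene, in lower case, with capitals for matches to the motifs GGCGCC, GCCGNCGC and TATAAA. The windows are Id2 at chr12:25096043-25096342 on the minus strand, Id3 at chr4:136143572-136143871 on the plus strand, Id4 at chr13:48260866-48261165 on the plus strand and Tgfb2 at chr1:186705940-186706239 on the minus strand.
Id2: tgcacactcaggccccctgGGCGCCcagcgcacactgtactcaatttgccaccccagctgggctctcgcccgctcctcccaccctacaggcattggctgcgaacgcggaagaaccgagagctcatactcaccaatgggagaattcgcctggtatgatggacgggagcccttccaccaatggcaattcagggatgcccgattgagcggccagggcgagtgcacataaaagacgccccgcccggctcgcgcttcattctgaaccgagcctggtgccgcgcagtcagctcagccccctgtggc
Id3: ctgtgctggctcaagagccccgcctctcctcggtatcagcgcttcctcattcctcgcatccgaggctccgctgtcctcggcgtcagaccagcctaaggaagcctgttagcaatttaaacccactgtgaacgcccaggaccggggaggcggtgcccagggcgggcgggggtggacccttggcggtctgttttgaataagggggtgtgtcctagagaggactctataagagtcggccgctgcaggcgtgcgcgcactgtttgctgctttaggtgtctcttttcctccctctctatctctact
Id4: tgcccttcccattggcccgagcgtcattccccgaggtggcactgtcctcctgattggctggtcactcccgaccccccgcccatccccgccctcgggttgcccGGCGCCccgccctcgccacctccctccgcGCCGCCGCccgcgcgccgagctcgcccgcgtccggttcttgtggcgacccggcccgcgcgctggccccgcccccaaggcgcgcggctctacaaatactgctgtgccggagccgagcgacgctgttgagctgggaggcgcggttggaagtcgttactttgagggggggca
Tgfb2: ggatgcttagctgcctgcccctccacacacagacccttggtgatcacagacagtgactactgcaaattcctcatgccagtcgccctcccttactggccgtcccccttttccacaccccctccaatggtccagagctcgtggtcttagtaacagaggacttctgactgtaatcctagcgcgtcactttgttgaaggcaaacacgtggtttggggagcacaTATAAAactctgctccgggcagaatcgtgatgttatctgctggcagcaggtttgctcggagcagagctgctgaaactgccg

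The motifs were searched on both strands. GGCGCC and GCCGNCGC are GC-rich elements of the kind bound by Smads of the BMP branch, GTCTAGAC is a palindrome bound by Smad3 and Smad4, and TATAAA is the TATA box. The shares of the genome count windows, and the pathway counts are of genes with a match in any of their windows. GGCGCC was present in 11.9% of 32851 promoter windows of the genome and in 11 of the 31 pathway genes. GCCGNCGC was present in 9.76% of all windows and in 13 of the 31 genes, some of which hold both. GTCTAGAC occurred in 0.213% of all windows and in 1 of the 31 genes, Smad6. TATAAA occurred in 13.6% of all windows and in 5 of the 31 genes. The Id4 window holds 1 GGCGCC and 1 GCCGNCGC, which do not overlap, the Id2 window holds 1 GGCGCC and the Tgfb2 window 1 TATAAA. The Id3 window holds 0 matches to the 4 motifs. These matches are descriptions of the letters in the windows.

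Control features divided the arrays into an early set of 12, E7.5 to E10.5, and a late set of 8, E12.5 to E18.5. An array's median signal was 156 to 178 in the late set and 67.2 to 91.1 in the early set, and a spiked control (the middle probe set of dap) read 1812 to 2571 in the late set and 50.8 to 119 in the early set. Development and array set cannot be told apart between E10.5 and E12.5, so the long comparisons were made within a set. Arrays of the same stage correlated at 0.976 to 0.990 over 16 pairs. Changes are differences of log2(signal + 25.9), later minus earlier, with the standard error (SE) of a limma model fitted to all 14045 genes tested, a scale that understates the change of low signals. A gene was called, and is said to have risen or fallen, at a Benjamini-Hochberg adjusted p below 0.05 with at least a 2-fold change.

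**Figure D1:**
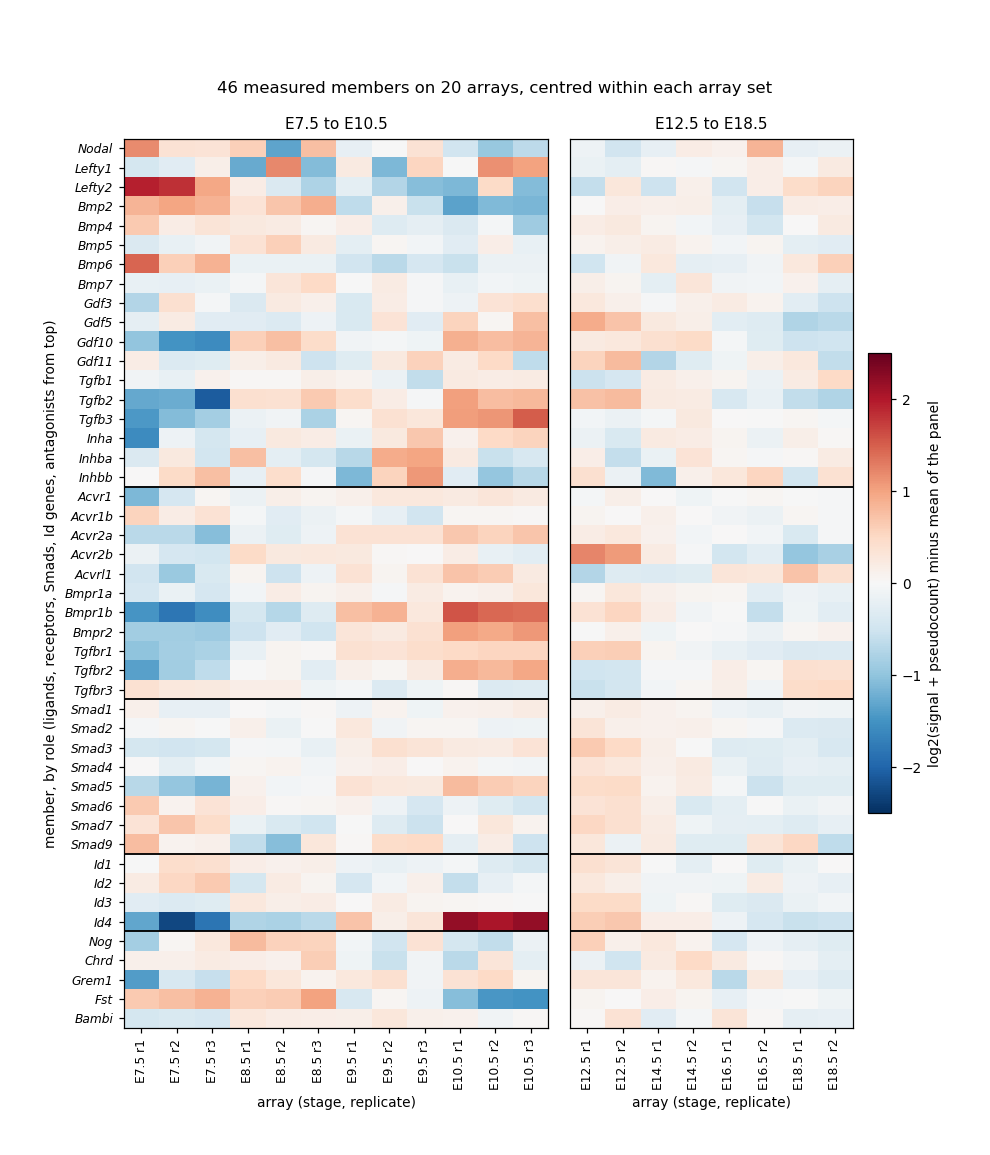
Values of the 46 measured pathway genes on each of the 20 arrays, ordered by role, as log2(signal + pseudocount) minus the mean of the gene within the early set (left panel, 12 arrays) or the late set (right panel, 8 arrays). Red is above and blue below the gene's own mean, so colours compare arrays of 1 panel and not genes or panels; Id4, Bmpr1b, Tgfb2, Tgfb3 and Gdf10 are lowest at E7.5, and Bmp2 and Fst are lowest at E10.5.

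Between gastrulation and the midgestation embryo, at E10.5 against E7.5, 13 of the 45 pathway genes rose and 6 fell. Over all genes tested, 16% rose and 7.49% fell. The median change was 0.24 over the pathway genes and 0.11 over all genes. In all, 19 pathway genes were called, where 23.5% of all genes were. The arrays of the 2 stages did not overlap for any of the 19. A call makes this likely in itself, and the share of all genes without overlap was not counted. Receptors accounted for 6 of the rises and for 0 falls among 11 tested, with a median change of 1.12; with the mean of all probe sets, Acvr2a (0.84), Acvrl1 (0.56) and Tgfbr2 (0.82) stayed under 2-fold and 3 of these rises were left. Ligands were divided, with 4 rises and 5 falls among 17. Of 8 Smad genes 1 rose, of 4 Id genes 1 rose, and of 5 antagonists 1 rose and 1 fell. A further 13 genes passed the adjusted p with less than a 2-fold change, as did 34.5% of all genes. The first-numbered arrays of the 4 early stages deviated together from their stage means, with correlations of 0.14 to 0.28 over 6 pairs. Without them 15 pathway genes were called, and Nodal, Bmp6, Grem1 and Inha were not. The share of all genes called in that fit is not given, so this count is not read as a result about the pathway.

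**Figure D2:**
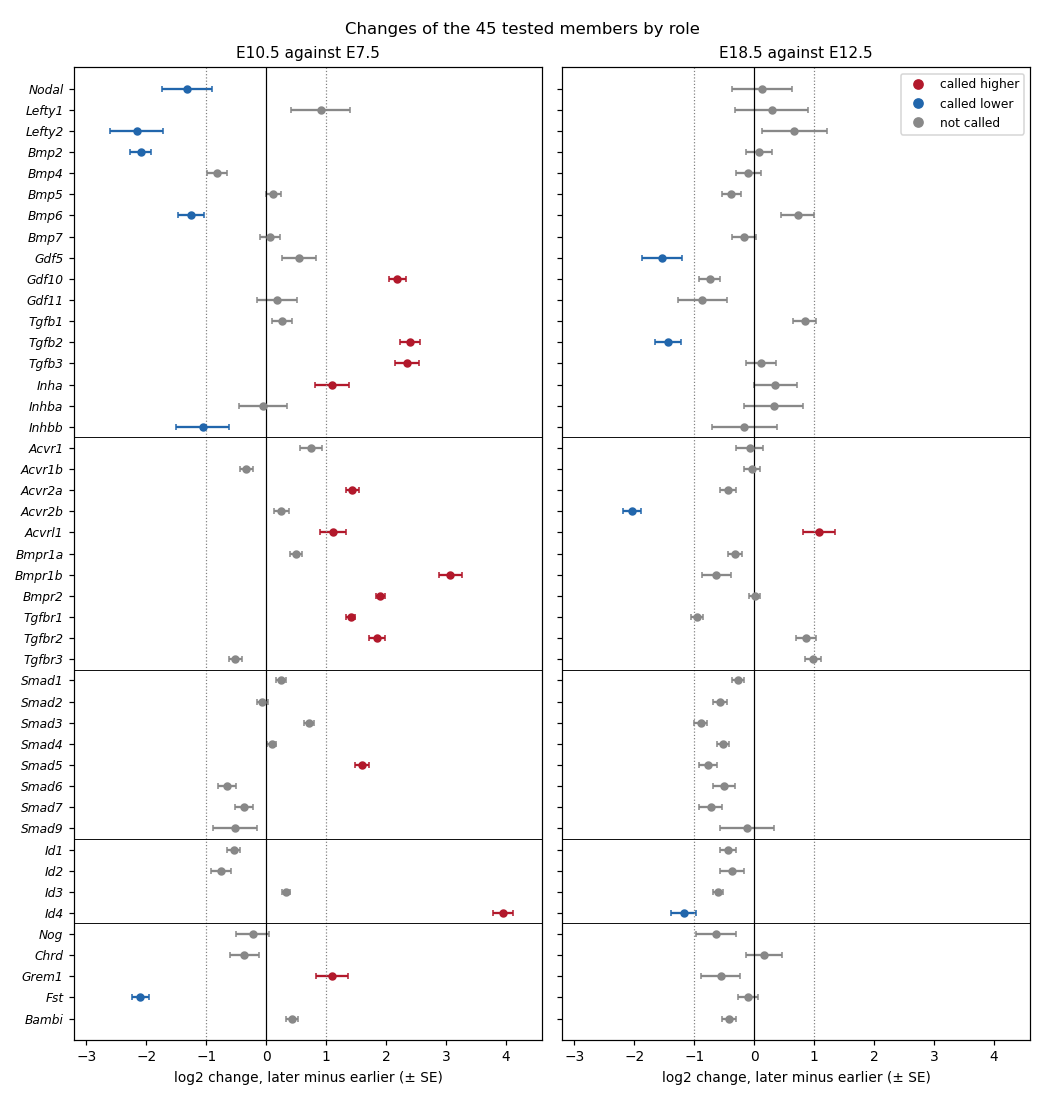
Log2 change (horizontal axis, later minus earlier stage, points with bars of 1 SE) of the 45 tested pathway genes, grouped by role, at E10.5 against E7.5 (left) and at E18.5 against E12.5 (right). Dotted lines mark a 2-fold change and coloured points are called genes; 13 lie to the right and 6 to the left in the left panel, and 1 and 4 in the right panel.

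Nodal and Lefty2 had their highest means of the early set at E7.5. Lefty2, a feedback inhibitor of Nodal, had signals of 1.89, 58.4 and 2.82 on the E10.5 arrays, against 209, 189.7 and 92.1 on the E7.5 arrays. It fell by 2.16 ± 0.44 on the log2 scale (adjusted p = 0.000279), and the lowest E7.5 array was above the highest E10.5 array. Most of that difference was present at E8.5, where the signals were 43.6, 21.2 and 9.71 and the change from E7.5 was -1.89 ± 0.44 (adjusted p = 0.00177). Lefty2 lay under the 25th percentile of the array on 14 of the 20 arrays and above the median only on the 3 E7.5 arrays, so the order of its later values cannot be read. It passed the signal filter only through those 3 arrays. Nodal itself, the ligand that patterns the gastrulating embryo, averaged 23.5 ± 7.78 at E10.5 and 102 ± 45.3 at E7.5 (SD, n = 3 each), a change of -1.32 ± 0.41 (adjusted p = 0.00953). Without the first E7.5 array, which had 153.9 against 75.67 and 75.01 on the others, the Nodal change was -1.05 with an adjusted p of 0.0556. Its other probe set changed by -1.06. Lefty1, the close relative of Lefty2 with the same role, had 51.6, 146.4 and 130.7 at E10.5, against 31.5, 38.3 and 60.2 at E7.5. These ranges overlap, and its change of 0.91 ± 0.50 did not pass (adjusted p = 0.127). Its E8.5 arrays gave 6.74, 152.9 and 10.8, a wider spread than the difference between the stages.

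BMP ligands went different ways. Bmp2, a BMP with roles in heart and cartilage, had 125, 152 and 147 at E10.5, against 663, 727 and 667 at E7.5. All E10.5 arrays were below all E7.5 arrays, and the change was -2.09 ± 0.17 (adjusted p = 2.14e-09), a 4.26-fold fall. Its stage means ran 685 ± 36.1, 580.1 ± 116, 282 ± 96.6 and 141 ± 14.2 from E7.5 to E10.5 (SD, n = 3 each). Bmp6, a ligand of the Bmp5 to Bmp7 subgroup, averaged 128 ± 24.4 at E10.5 and 350.3 ± 118 at E7.5, and fell by 1.26 ± 0.22 (adjusted p = 5.55e-05). The Bmp6 fall was present at E8.5, with signals of 141, 139.5 and 140.1, at -1.14 ± 0.22 (adjusted p = 0.000328). Without the first-numbered arrays of the early stages the change at E10.5 was -0.88, and without the first E7.5 array the change at E8.5 was -0.90, both under 2-fold. Bmp4, which induces mesoderm and germ cells in the early embryo, averaged 662 ± 193 at E10.5 and 1168 ± 208 at E7.5. Its change of -0.82 ± 0.17 passed the adjusted p (0.000332) and stayed under 2-fold. Bmp5 and Bmp7 changed by 0.12 ± 0.13 and 0.06 ± 0.16, and neither passed.

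Gdf10, a ligand related to Bmp3, had 366, 339.9 and 357 at E10.5, against 82.2, 49.6 and 45.5 at E7.5. The stages were well apart, and Gdf10 rose by 2.19 ± 0.14 (adjusted p = 4.07e-11). Its course was not even, with means of 298 ± 33.0 at E8.5 and 175 ± 3.82 at E9.5. Gdf5, a ligand of joint and cartilage formation, and Gdf11, which patterns the trunk and tail, did not pass, at 0.55 ± 0.28 and 0.18 ± 0.33.

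Among the TGF-betas proper, Tgfb2 and Tgfb3 rose. Tgfb2, needed in the mouse for heart, skeleton and inner ear, had 637, 530.4 and 546 at E10.5, against 109, 112 and 51.7 at E7.5. Its rise was 2.40 ± 0.17 (adjusted p = 3.14e-10), and 2.01 ± 0.17 of it was present at E8.5 against E7.5 (adjusted p = 1.42e-08), where the arrays gave 405.5, 399.7 and 488. The 3 other Tgfb2 probe sets rose by 1.58 to 2.33 at E10.5. Tgfb3, needed for fusion of the palate, had 177, 186 and 254 at E10.5, against 10.3, 20.6 and 28.8 at E7.5. It rose by 2.35 ± 0.20 (adjusted p = 4.89e-09), in stage means of 19.9 ± 9.27, 53.2 ± 19.8, 90.01 ± 13.6 and 206 ± 42.2 (SD, n = 3 each). Tgfb1, best known for roles in blood vessels and immune cells, had 252 ± 4.17 at E10.5 and 206 ± 23.9 at E7.5. Its change of 0.26 ± 0.16 did not pass (adjusted p = 0.165).

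Of the subunits from which activins and inhibins are built, Inha rose by 1.10 ± 0.29 (adjusted p = 0.00292) and Inhbb fell by 1.06 ± 0.44 (adjusted p = 0.0442), while Inhba gave -0.05 ± 0.40. These were low signals, with means of 102 ± 20.4 at E10.5 and 38.2 ± 28.5 at E7.5 for Inha, and of 26.8 ± 12.6 and 84.3 ± 27.4 for Inhbb at the same stages. The second Inhbb probe set changed by 0.29, in the other direction. Without E10.5 array 2 or 3, or E7.5 array 2 or 3, the adjusted p of Inhbb was 0.134, 0.0897, 0.0928 or 0.138, and with the mean of both probe sets it was 0.331. Without the first E7.5 array, at 6.72, the Inha change was 0.67.

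**Figure D3:**
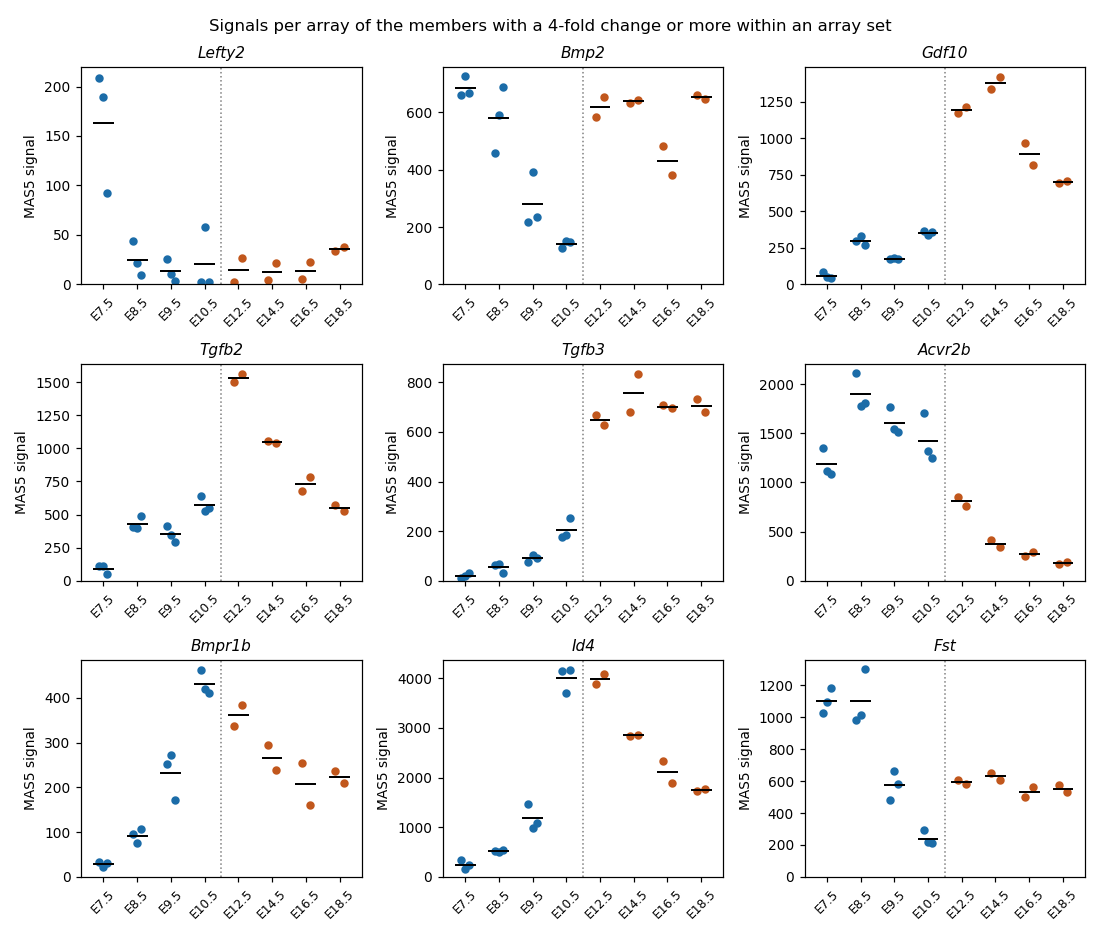
MAS5 signal (vertical axis, linear, a scale per panel) of the 9 pathway genes with a called change of at least 4-fold within an array set, by stage. Points are arrays, black bars stage means, blue the early set and orange the late set, with a dotted line between them; Id4 and Bmpr1b climb at each stage from E7.5 to E10.5, Bmp2 and Fst step down, and Acvr2b steps down from E12.5 to E18.5.

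Bmpr1b, a type I BMP receptor used in limb cartilage, had 463, 419 and 410.3 at E10.5, against 33.8, 21.3 and 30.7 at E7.5. It rose by 3.07 ± 0.20 (adjusted p = 3.93e-11), 8.41-fold, and its other probe sets by 1.34 and 1.56. By step it rose by 1.11 ± 0.20 at E8.5 against E7.5 (adjusted p = 0.000113) and by 1.12 ± 0.20 at E9.5 against E8.5 (adjusted p = 0.00036), and changed by 0.84 ± 0.20 at E10.5 against E9.5, under 2-fold. At E8.5 against E7.5 its other probe sets changed by 0.19 and 0.28, the mean of all probe sets by 0.53 and the value with the larger pseudocount by 0.57. At E9.5 against E8.5 the other probe sets changed by 0.73 and 0.95, the mean by 0.93 and the value with the larger pseudocount by 0.77. Bmpr1a, the broadly expressed type I BMP receptor, had 3234 ± 241 at E10.5 and 2283 ± 233 at E7.5, a change of 0.50 ± 0.10 that passed the adjusted p (0.000214) and stayed under 2-fold.

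The type II receptors bind the ligand and activate the type I chain. Bmpr2, the type II receptor for BMPs, averaged 2890 ± 131 at E10.5 and 753 ± 12.3 at E7.5 and rose by 1.90 ± 0.08 (adjusted p = 3.88e-14). Its other probe sets changed by 0.46 and 0.65. Acvr2a, a type II receptor for activins and Nodal, had 1354, 1254 and 1374 at E10.5, against 519, 521 and 392 at E7.5, a rise of 1.44 ± 0.11 (adjusted p = 4.65e-10), and its other probe set changed by 0.25 and the mean of both by 0.84. Acvr2b, its close relative, had 1703, 1321 and 1244 at E10.5, against 1347, 1121 and 1081 at E7.5. These ranges overlap, the change of 0.25 ± 0.12 did not pass (adjusted p = 0.0853), and the highest mean of the early set was at E8.5 (1900.0 ± 184).

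Both chains of the TGF-beta receptor rose. Tgfbr2, the type II chain, averaged 799 ± 49.0 at E10.5 and 209 ± 58.0 at E7.5 and rose by 1.84 ± 0.13 (adjusted p = 2.70e-10). Its other probe sets changed by -0.05 and 0.66, and the mean over all its probe sets by 0.82. Tgfbr1, the type I chain, averaged 3947 ± 54.4 at E10.5 and 1474 ± 119 at E7.5 and rose by 1.41 ± 0.08 (adjusted p = 4.73e-12), and its other probe sets by 1.42 and 1.67. Acvrl1, the type I receptor of endothelium, averaged 139 ± 29.1 at E10.5 and 50.3 ± 14.4 at E7.5 and rose by 1.12 ± 0.22 (adjusted p = 0.000215). Its other probe set changed by 0.01, and without the second E7.5 array the change was 0.95. The summed signal of 6 endothelial markers was 3194 to 3610 at E10.5 and 828 to 878 at E7.5, and their part in the Acvrl1 change was not tested. Of the remaining receptors, Acvr1, a type I receptor for BMPs (0.75 ± 0.18), Acvr1b, the type I receptor for Nodal and activin (-0.33 ± 0.11), and the co-receptor Tgfbr3 (-0.51 ± 0.11) passed the adjusted p under 2-fold.

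Of the 8 intracellular Smads 1 was called. Smad5, of the BMP branch, averaged 1843 ± 161 at E10.5 and 594 ± 99.7 at E7.5 and rose by 1.60 ± 0.12 (adjusted p = 3.29e-10), with other probe sets at 0.90 and 1.91. Smad3, of the TGF-beta and Nodal branch, changed by 0.72 ± 0.09 (adjusted p = 4.13e-07), under 2-fold. The common Smad4 changed by 0.09 ± 0.08 and Smad2 by -0.07 ± 0.09, and neither passed. The other probe sets of Smad4 changed by 0.23 and 0.62 and that of Smad2 by 0.87, all under 2-fold. The inhibitory Smad6 and Smad7 changed by -0.65 ± 0.15 and -0.37 ± 0.15, and Smad1 by 0.24 ± 0.08, all past the adjusted p and under 2-fold. Smad9 gave -0.51 ± 0.37 and did not pass (adjusted p = 0.246).

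The Id genes are widely used as readouts of BMP signalling. They encode helix-loop-helix proteins that block the DNA binding of other such factors. Id4, which is found in neural progenitors, had 4147, 3712 and 4167 at E10.5, against 346, 162 and 229.8 at E7.5. This was the largest change of the 45 genes, 3.95 ± 0.17 (adjusted p = 9.47e-14) or 15.4-fold, with the other Id4 probe sets at 3.18 and 3.56. Its means ran 246 ± 93.01, 519 ± 24.9, 1181 ± 256 and 4009 ± 257 from E7.5 to E10.5 (SD, n = 3 each). The last step was the largest, 1.76 ± 0.17 at E10.5 against E9.5 (adjusted p = 4.91e-07). The summed signal of 5 neuron markers was 10612 to 11240 at E10.5, 1742 to 2538 at E9.5 and 629 to 692 at E7.5, and their part in the Id4 change was not tested.

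By the probe set with the highest mean, which stood for the gene, the other Id genes stayed under 2-fold. Id1 had 4233, 3517 and 3230.5 at E10.5, against 4369, 5913 and 5811 at E7.5, a change of -0.54 ± 0.11 (adjusted p = 0.000361). Id2 had 3496, 4611 and 5102 at E10.5, against 6144, 7567 and 8402 at E7.5, a change of -0.75 ± 0.17 (adjusted p = 0.000658). Its other probe sets changed by -0.85 and -1.26, the latter past 2-fold. Id3 had 6526, 6468 and 6298 at E10.5, against 5190.0, 4978 and 5145 at E7.5, a change of 0.33 ± 0.07 (adjusted p = 0.000308). The Id1 and Id2 changes were negative and those of Id3 and Id4 positive.

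**Figure D4:**
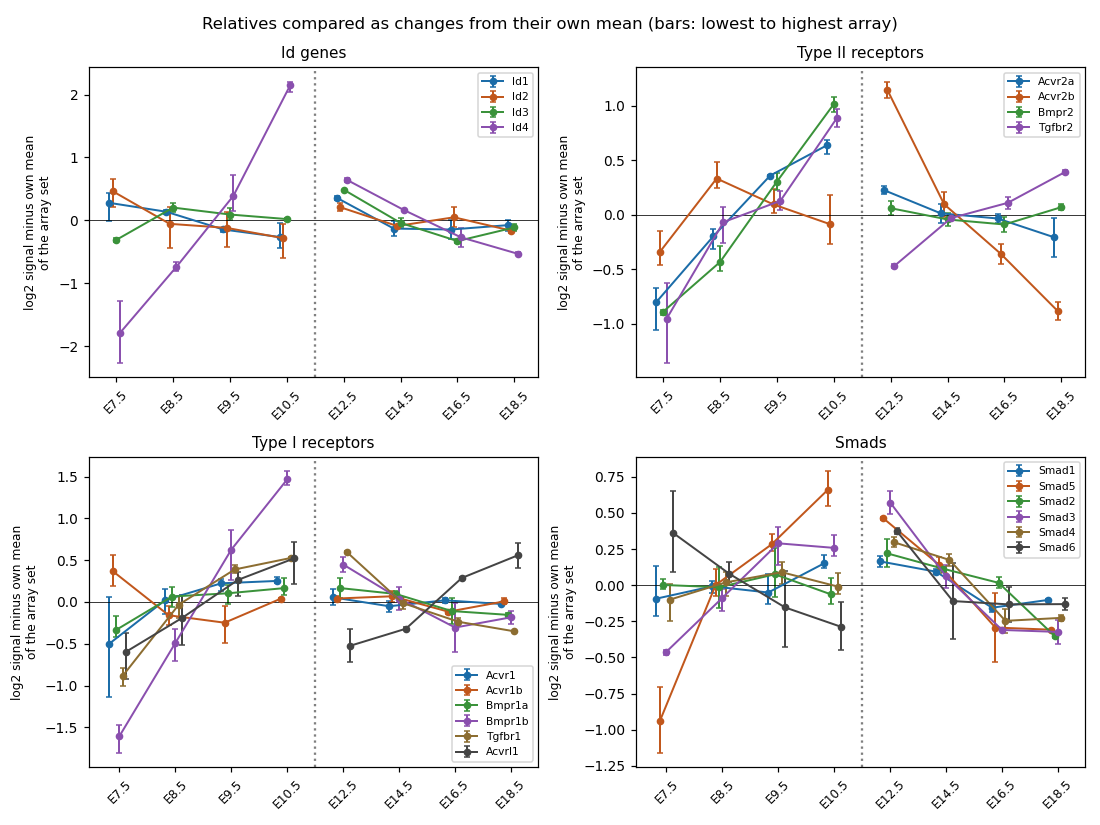
Log2(signal + pseudocount) minus the gene's own mean within an array set (vertical axis) by stage, for the Id genes, type II receptors, type I receptors and 6 of the 8 Smads. Points are stage means, bars run from the lowest to the highest array and the dotted line divides the array sets. Heights compare stages of 1 gene within a set. Id4 spans 3.95 from E7.5 to E10.5, where the plotted probe sets of Id1, Id2 and Id3 stay under a 2-fold change.

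Extracellular antagonists were mixed. Fst, the activin-binding protein follistatin, had 295, 216 and 209.8 at E10.5, against 1027, 1095 and 1186 at E7.5. It fell by 2.10 ± 0.14 (adjusted p = 5.42e-11), and its other probe set by 1.93. By the first probe set, the mean at E8.5, 1099.5 ± 178, was level with that at E7.5, 1102 ± 79.7. Its largest step was -1.18 ± 0.14 at E10.5 against E9.5 (adjusted p = 3.89e-06), and -0.98 with the larger pseudocount. The other probe set changed by 0.45 at E8.5 against E7.5, by -1.42 at E9.5 against E8.5 and by -0.96 at E10.5 against E9.5. The stage of the largest step therefore differed between the probe sets. Grem1, the BMP antagonist Gremlin, averaged 138 ± 23.8 at E10.5 and 53.0 ± 26.1 at E7.5 and rose by 1.10 ± 0.27 (adjusted p = 0.00132). Without the first E7.5 array, at 23.7, it changed by 0.80. The BMP antagonists Noggin (Nog, -0.22 ± 0.27) and Chordin (Chrd, -0.36 ± 0.25) did not pass, and the pseudoreceptor Bambi gave 0.44 ± 0.10, under 2-fold.

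Markers of early tissues were also lower at E10.5 than at E7.5. Summed over 9 measured markers of visceral and yolk sac endoderm, the signal was 9116 to 10672 at E10.5 and 96096 to 113400 at E7.5. Over 5 trophoblast markers it was 233 to 328 at E10.5 and 4515 to 6118 at E7.5. Over 5 epiblast markers it was 867 to 1475 at E10.5 and 16023 to 17142 at E7.5, and over 4 primitive streak markers 244 to 279 at E10.5 and 1177 to 1697 at E7.5. At E10.5, 4 of the 9 endoderm markers, 1 of the 5 trophoblast, 1 of the 5 epiblast and 1 of the 4 streak markers were above the array median on all 3 arrays, and Apoa4 lay under the 25th percentile on all 3. At E8.5 the sums were 29475 to 32803 for endoderm, 578 to 637 for trophoblast, 3183 to 4754 for epiblast and 930 to 1138 for streak. Over 4 decidua markers the sum was 988 to 1603 at E7.5, higher at E8.5 (2144.5 to 3682) and lower at E10.5 (491 to 733). Of these 4, 1 was above the array median on all E10.5 arrays. At E8.5, Fst (-0.01 ± 0.14, adjusted p = 0.957) and Bmp2 (-0.25 ± 0.17, adjusted p = 0.284) had not passed against E7.5. The part of these tissues in the falls of Nodal, Lefty2, Bmp2, Bmp6, Inhbb and Fst was not tested.

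The single steps divided these changes, and since neighbouring steps share arrays they are not independent of each other or of the long comparison. At E8.5 against E7.5, 5 genes rose (Tgfb2, Gdf10, Bmpr1b, Id4 and Grem1) and 2 fell (Lefty2 and Bmp6), 7 of 45 in all, where 6.27% of all genes rose, 4.93% fell and 11.2% did either. At E9.5 against E8.5, 2 of 45 rose (Bmpr1b and Id4) and 1 fell (Bmp2), where 2.48% of all genes rose, 1.68% fell and 4.17% did either. At E10.5 against E9.5, 1 of 45 rose (Id4) and 1 fell (Fst), where 3.15% of all genes rose, 0.513% fell and 3.66% did either. Bmp2 fell at the threshold, by 1.00 ± 0.17 at E9.5 against E8.5, and under quantile normalization 0 of the 3 calls of that step were made. Id4 was called in each of the 3 steps, though its first 2 calls depended on the processing. At E8.5 against E7.5 its other probe sets changed by 0.64 and 0.70, and the mean of all probe sets by 0.80. The same change was 0.80 under quantile normalization, 0.995 under scaling by the 75th percentile and 0.87 with the larger pseudocount. Without the second E7.5 array it was 0.82. At E9.5 against E8.5, Id4 gave 0.96 without the first E9.5 array, also under 2-fold. Without that E9.5 array, 1 gene was called at E9.5 against E8.5 and 4 at E10.5 against E9.5, with the shares of all genes not given. Bmp2 at E9.5 against E8.5 gave -0.98, -0.87, -0.86 and -0.90 without E8.5 array 2 or 3 or E9.5 array 1 or 3. Bmpr1b fell short of 2-fold in the same step without the second E9.5 array, and Grem1 at E8.5 against E7.5 gave 0.78 without the first E7.5 array and 0.98 without the first E8.5 array. Of the 45 genes, 14 had their highest mean of the early set at E7.5, 7 at E8.5, 5 at E9.5 and 19 at E10.5.

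At E18.5 against E12.5, 1 of the 45 genes rose and 4 fell, 5 in all, where 15.2% of all genes rose, 6.44% fell and 21.7% did either. The median change was -0.32 over the pathway genes and -0.09 over all genes. Under quantile normalization 3 rose and 5 fell, and under scaling by the 75th percentile 2 rose and 4 fell. The shares of all genes under these scalings are not given, so these counts are not read as results about the pathway. The largest change was that of Acvr2b, the type II activin and Nodal receptor, which had 166 and 189.5 at E18.5, against 849.6 and 763 at E12.5. It fell by 2.03 ± 0.15 (adjusted p = 1.18e-09), its other probe sets by 1.03 and 1.75, and its means ran 806 ± 61.1, 377 ± 45.9, 267 ± 27.1 and 178 ± 16.54 from E12.5 to E18.5 (SD, n = 2 each). Its relative Acvr2a had 1001 and 1286 at E18.5, against 1501 and 1584 at E12.5, a change of -0.43 ± 0.13 (adjusted p = 0.00887), under 2-fold.

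The other calls of the late set were Tgfb2, Gdf5, Id4 and Acvrl1. Tgfb2 had 575 and 526 at E18.5, against 1506 and 1565 at E12.5, and fell by 1.44 ± 0.21 (adjusted p = 1.15e-05). Gdf5 had 64.2 and 69.7 at E18.5, against 265 and 223 at E12.5, and fell by 1.54 ± 0.34 (adjusted p = 0.000779). It was above the array median only on the 2 E12.5 arrays, so it passed the signal filter only through the stage where it is high. The summed signal of 6 cartilage markers was 18293 to 20849 at E18.5 and 10512 to 10678 at E12.5, and their part in the Gdf5 change was not tested. Id4 averaged 1749 ± 37.4 at E18.5 and 3979.6 ± 137 at E12.5 and fell by 1.17 ± 0.21 (adjusted p = 8.8e-05). The neuron markers summed to 8393 to 9426 at E18.5 and 17177 to 17442 at E12.5, and their part in the Id4 fall was not tested. Acvrl1 averaged 247 ± 40.5 at E18.5 and 103 ± 24.9 at E12.5 and rose by 1.08 ± 0.27 (adjusted p = 0.00223). The 6 endothelial markers summed to 4046 to 4086 at E18.5 and 2677 to 2867 at E12.5, and their part in the Acvrl1 rise was not tested. Without the first E12.5 array, at 85.7, the Acvrl1 change was 0.88, and without the first E18.5 array, at 275, it was 0.93, both under 2-fold. Its other probe set changed by 0.78 and the mean of both by 0.93. Quantile normalization gave 0.97 and the larger pseudocount 0.76, also under 2-fold.

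Below the 2-fold threshold, 7 of the 8 Smad genes passed the adjusted p with a lower signal at E18.5 than at E12.5, where 22.7% of all genes did so under 2-fold, and the median change of the 8 was -0.55. The largest was that of Smad3, with 830.1 ± 67.9 at E18.5 and 1566 ± 120 at E12.5, at -0.90 ± 0.10 (adjusted p = 5.56e-07). Smad5 changed by -0.77 ± 0.14, Smad7 by -0.73 ± 0.19, Smad2 by -0.57 ± 0.11, Smad4 by -0.52 ± 0.10, Smad6 by -0.50 ± 0.19 and Smad1 by -0.27 ± 0.10. The other probe set of Smad7 changed by only -0.14, and those of Smad1 to Smad5 by -0.29 to -0.935. Smad9, at -0.12 ± 0.45, did not pass. Id1 and Id3 also passed with lower signals, at -0.43 ± 0.14 and -0.60 ± 0.08. The receptor chains of TGF-beta differed in sign, with Tgfbr1 at -0.95 ± 0.10 (adjusted p = 7.63e-08), Tgfbr2 at 0.86 ± 0.16 (adjusted p = 0.000166) and the co-receptor Tgfbr3 at 0.99 ± 0.13 (adjusted p = 3.6e-06). Their other probe sets changed by -0.93 and -0.42 for Tgfbr1, by -0.15 and 1.05 for Tgfbr2 and by 0.31 for Tgfbr3. Tgfb1 gave 0.84 ± 0.19 (adjusted p = 0.00113), with 538.6 ± 78.3 at E18.5 and 288 ± 18.3 at E12.5, and its other probe set changed by 0.39.

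At E14.5 against E12.5, 1 of 45 genes was called, Acvr2b, which fell by 1.05 ± 0.15 (adjusted p = 0.000105), where 3.28% of all genes rose, 0.37% fell and 3.65% did either. Without the first E12.5 array or the second E14.5 array it changed by -0.97 and -0.93. At E16.5 against E14.5 limma called 0 of 45, where 3.6% of all genes rose, 0.178% fell and 3.78% did either. At E18.5 against E16.5 limma called 0 of 45, where 3.52% of all genes rose, 0.776% fell and 4.29% did either. The unadjusted limma p was below 0.05 for 12 of the 45 at E16.5 against E14.5 and for 8 at E18.5 against E16.5. How many of all genes had such a p was not counted, so these counts are not read as results about the pathway. In each of these last steps 4 of the 45 genes passed the adjusted p under 2-fold, where 6.48% of all genes did so at E16.5 against E14.5 and 11.5% at E18.5 against E16.5. They were Gdf10, Smad3, Smad4 and Id3, all lower, in one step, and Acvr2b, Smad2 and Bambi, lower, with Tgfbr3, higher, in the other. Of the 45 genes, 26 had their highest mean of the late set at E12.5, 7 at E14.5, 3 at E16.5 and 9 at E18.5.

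Across the change of array set, at E12.5 against E10.5, 11 of the 45 genes were called higher and 0 lower, where 10.6% of all genes were higher, 2.02% lower and 12.6% either. Ligands made up 8 of the 11. Inhba, the activin A subunit, gave 2.57 ± 0.45, with 290.2 and 163 at E12.5, against 31.1, 7.31 and 11.03 at E10.5, and its other probe set changed by 0.00. Inhba was above the array median on 8 arrays, all of the late set, so it passed the signal filter only through the set where it is high. Gdf5, which passed the signal filter only through the E12.5 arrays, gave 2.46 ± 0.31. Bmp2 gave 1.95 ± 0.19, Inhbb 1.92 ± 0.49, Gdf10 1.68 ± 0.16, Tgfb3 1.56 ± 0.23, Tgfb2 1.39 ± 0.19 and Inha 1.09 ± 0.32. Fst, Tgfbr2 and Acvr1 completed the list at 1.24 ± 0.15, 1.13 ± 0.15 and 1.10 ± 0.20. With the mean of all probe sets these 3 gave 0.99, 0.70 and 0.52, and under scaling by the 75th percentile 0.997, 0.88 and 0.85, all under 2-fold. Fst gave 0.90 under quantile normalization, and the other Acvr1 probe sets changed by 0.16 and 0.31. Without the first E12.5 array Inha gave 0.97 (adjusted p = 0.0853) and Inhbb 1.65 (adjusted p = 0.0508), without the first E10.5 array Inha gave 0.95, and under quantile normalization Inha gave 0.39. Under scaling by the 75th percentile 7 genes were higher and 2 lower, and the median change over all genes was -0.11 in place of 0.12. The share of all genes called under that scaling is not given, so these counts are not read as results about the pathway. Array set and stage cannot be told apart in any of these values.

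A wider list of 56 genes around the pathway, none of them among the 49, had 50 measured and 42 tested. At E10.5 against E7.5, 9 of the 42 rose and 9 fell, against the same background of 16% and 7.49%. Under quantile normalization 6 rose and 10 fell, and the share of all genes under that setting is not given. Foxh1, the DNA-binding partner of Smads in Nodal signalling, averaged 60.1 at E10.5 and 1367 at E7.5 and fell by 4.07 ± 0.36 (adjusted p = 5.22e-09). Cer1, a secreted Nodal and BMP antagonist of the anterior visceral endoderm, fell by 3.30 ± 0.35 (adjusted p = 7.12e-08), and Cfc1, the Nodal co-receptor Cryptic, by 3.14 ± 0.21 (adjusted p = 1.04e-10). Tgfbi, a matrix protein induced by TGF-beta, averaged 2050 at E10.5 and 126 at E7.5 and rose by 3.75 ± 0.17 (adjusted p = 2.1e-13). Eomes, Tdgf1, Bmp8b, Amhr2, Fstl3 and Inhbc were the other genes that fell, and Bmp1, Fstl1, Gsc, Ltbp1, Ltbp4, Rgmb, Skil and Sostdc1 the others that rose.

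At E18.5 against E12.5, 6 of the 42 rose and 6 fell, where 15.2% of all genes rose and 6.44% fell. Ltbp2, a matrix protein of the latent TGF-beta binding family, rose by 2.53 ± 0.38 (adjusted p = 1.25e-05), and Hjv, the BMP co-receptor hemojuvelin, by 2.39 ± 0.24 (adjusted p = 7.88e-08). Fstl3, a relative of follistatin, rose by 1.54 ± 0.56 (adjusted p = 0.0249), while Msx1, a homeobox gene induced by BMPs, fell by 2.02 ± 0.14 (adjusted p = 2.79e-10). Ltbp3, Ltbp4 and Amhr2 also rose, and Msx2, Tgif1, Tgif2, Gsc and Eomes also fell.

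The strength of these statements depends on the signal behind them. Of the measured pathway genes, 26 were above the array median on all 20 arrays, and 8 on fewer than 10. Nodal was above it on 5, the 3 E7.5 arrays and 2 of E8.5. Of the 19 genes called at E10.5 against E7.5, 12 have more than 1 probe set. In 10 of these every other probe set changed in the same direction, and in 6 every other one changed at least 2-fold.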

How the data were processed

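Whole-embryo RNA of 8 stages was measured on 20 Affymetrix arrays. Each deposited value is an intensity, a linear MAS5 signal per probe set that the authors computed with MAS5, per the submitters' processing notes. The version and settings of MAS5 are not given in the sources used here. On each array the mean without the lowest and highest 2% of values was 500.0, so the arrays share a scaled trimmed mean, and no further normalization was applied. There is no read depth for arrays, so precision rests on how many there are.

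Of 45101 probe sets, 34958 carry 1 gene symbol and were used, 932 carry several and 9211 none. Entrez identifiers of 34754 matched a RefSeq table, which changed 0 symbols. The probe set with the highest mean log2 value stood for a gene. The pseudocount, 25.9, was taken as the middle value of the 20 arrays' 25th percentiles. Genes above the array median on at least 2 arrays were tested, 14045 of 18194 (77.2%). The fit, in limma 3.58.1 (R 4.3.3), used every array with a mean for each stage and a trended empirical Bayes variance, which left 12 residual degrees of freedom. Its two-sided p-values were adjusted by the method of Benjamini and Hochberg, per comparison, over the 14045 genes. The model was tested on simulated data.

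Signals per array are given for pathway genes called with at least a 4-fold change within an array set and their nearest relatives; other genes get means, ranges or counts. Some signals of single arrays outside this rule (Gdf5, Inhba, Tgfb2 after E12.5, Nodal, Bmp6, Grem1, Inha and Acvrl1) were added after their values were seen. From the wider list, up to 4 called genes with the largest change are given with values in each long comparison. The members, lists, comparisons and marker genes were chosen with earlier results of these data known. Each of these choices was changed in turn: the scaling (quantile normalization or a common 75th percentile), the pseudocount (4 times larger or smaller), the signal filter (none, or the 75th percentile), the probe sets (their mean), the arrays fitted (only both stages of a comparison), the fold (no minimum), a replicate block, and the arrays left out 1 by 1. Fits within an array set, or lacking the first-numbered arrays of the early set, were chosen after seeing the data.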

Additional observations from a re-analysis of the deposited data

How the results depend on the processing

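Of 48 called changes of pathway genes, 25 kept their call under every alternative in which the gene was tested, and 0 changed sign. The counts that follow compare settings, and the share of all genes called under each setting is not given beside each count. They are not read as results about the members. At E10.5 against E7.5 without a minimum fold, that share takes in the 23.5% of all genes called and the 34.5% that passed under 2-fold. Without a minimum fold the members called were 32 at E10.5 against E7.5, 26 at E8.5 against E7.5, 10 at E9.5 against E8.5, 10 at E10.5 against E9.5, 25 at E18.5 against E12.5, 7 at E14.5 against E12.5, 4 at E16.5 against E14.5, 4 at E18.5 against E16.5 and 20 at E12.5 against E10.5, and the genes of the wider list 36 at E10.5 against E7.5 and 20 at E18.5 against E12.5. With the filter at the 75th percentile 28 members were tested, and 11 (E10.5 against E7.5), 3 (E8.5 against E7.5), 3 (E18.5 against E12.5) and 7 (E12.5 against E10.5) were called. With the larger pseudocount 3 were called at E8.5 against E7.5, 1 at E9.5 against E8.5, 1 at E10.5 against E9.5 and 0 at E14.5 against E12.5. Quantile normalization called 0 at E9.5 against E8.5 and 8 at E18.5 against E12.5. The mean of all probe sets called 7 at E12.5 against E10.5, and turned the Bmpr1a change at E18.5 against E12.5, which was not called as 2-fold, to 0.0064. Fits of the arrays of E14.5 and E12.5 alone, or of the late set alone, called 2 at E14.5 against E12.5. Without the first-numbered arrays, 4 were called at E10.5 against E9.5. The causes of these differences were not tested, beyond the fewer genes under the stricter filter and the lower bar without a fold. Scaling by the 75th percentile moved the median change of all genes at E10.5 against E7.5 to -0.06, from 0.11, and 11 members rose and 7 fell under it. Quantile normalization moved that median to 0.01, and the median at E12.5 against E10.5 to -0.11, from 0.12.

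Leaving out each array in turn gave 16 to 19 members called at E10.5 against E7.5, 6 to 9 at E8.5 against E7.5, 1 to 3 at E9.5 against E8.5, 2 to 4 at E10.5 against E9.5, 4 to 6 at E18.5 against E12.5, 0 to 1 at E14.5 against E12.5, 0 at E16.5 against E14.5, 0 at E18.5 against E16.5, and 9 to 12 at E12.5 against E10.5; the wider list gave 18 to 20 and 9 to 12. Inhbb at E10.5 against E7.5 had an adjusted p of 0.0553 with no filter and of 0.0558 in the early set alone.

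With the replicate block, 19, 7, 3, 2, 5, 1, 0, 0 and 11 members were called in the same order, as without it, and no call changed. Arrays of the same number deviated together with correlations of 0.03 to 0.28 over 18 pairs in the early set and of -0.05 to 0.14 over 12 pairs in the late set. With 2 arrays per stage, the late deviations from a stage mean are mirror images. Each late correlation is therefore counted 2 times, and the 12 pairs are not 12 separate observations. All 6 pairs of first-numbered early arrays were over 0.1 (0.14 to 0.28) and 0 of the 12 other early pairs were (0.03 to 0.09), so the numbers were not taken as pairing all samples. Without the first-numbered early arrays, 8 of the 48 called changes lost their call. Lefty2, Gdf5 and Inhba lay under the array's 25th percentile on 14, 10 and 7 of the 20 arrays, and stages with 2 arrays rely on the spread of all stages.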
